A study of Homo sapiens with 16 samples.

Results

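Mitosis and spindle genes were examined as a group of 42 genes whose products drive chromosome segregation and cell division. The members were chosen by name, all 42 were found once among the 23459 genes of the table, and none was dropped by the filter on low values. The data are RNA sequencing libraries of human myeloma lines, tumours of plasma cells grown in culture. KMS18, MM.1s, RPMI8226 and a derivative of RPMI8226 with overexpression of Mcl1, a protein that protects from apoptosis (here the Mcl1 line), were each transfected with a short hairpin RNA (shRNA) against CD28, against CD86 or against Gapdh, the last as a control, or with the empty pLK0.1 vector (Vec). CD28 is a co-stimulatory receptor best known from T cells and CD86 is one of its ligands. Each of the 4 backgrounds gave 1 library with each construct, 16 in all, and the 3 parental lines served as the replicates. The Mcl1 line is a single derived line, and the sequences of the hairpins were not at hand. Nothing in the labels says that libraries came from repeated cultures, so a p-value covers no more than the spread among these lines and libraries.

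Cells enter mitosis when the kinase CDK1 is activated by cyclins A and B and by CDC25 phosphatases. Chromosomes then attach to spindle microtubules through kinetochores, the spindle assembly checkpoint holds cells until all are attached, and the anaphase-promoting complex with its activator CDC20 releases separase and ends mitosis. Most of the genes are transcribed late in the cell cycle, and in growing cell lines their RNA is used as a sign of the share of dividing cells. In bulk RNA a lower level may reflect fewer dividing cells or less RNA per cell, and the 2 cannot be told apart.

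Reads in genes numbered 3914513 to 5900955 per library, with the fewest of each background in its CD28 shRNA library. CD28 stood at 70.8%, 65.1%, 79.3% and 67.5% of its Vec level under its own shRNA in KMS18, MM.1s, RPMI8226 and the Mcl1 line. In the same order CD86 stood at 44.4%, 44.1%, 76.3% and 49.4% of Vec under CD86 shRNA, and GAPDH at 10.7%, 53.0%, 34.3% and 21.3% under Gapdh shRNA. With CD28 shRNA, CD86 had 3.10, 8.97, 11.4 and 12.3 FPKM, against 2.49, 3.18, 6.92 and 5.80 FPKM with Vec, and was higher in each background. With Gapdh shRNA, CD86 had 3.45, 6.46, 6.51 and 5.46 FPKM. Plasma cell markers summed to 614 to 1884 FPKM (fragments per kilobase of exon, with library size divided out) per library, against 0 to 3.54 for myeloid and 0.0597 to 0.841 for stromal markers. The 6 T cell markers in the table summed to 2.85 to 7.56 FPKM in the libraries with CD28 shRNA and to 0.707 to 2.38 FPKM with Vec. The sum was mainly CD3E (highest 7.21 FPKM) in KMS18 and MM.1s and CD8A in the other backgrounds, and CD3D was at 0 in every library.

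The mitosis genes were abundant. Their means over the 16 libraries had a median of 34.1 FPKM, against 9.41 FPKM over the 11349 genes that averaged 1 FPKM or more, and 40 of the 42 averaged at least 10 FPKM. KPNA2, an importin that carries spindle assembly factors, was the most abundant at 104 FPKM, and the phosphatase CDC25C the least at 3.91 FPKM. Among the regulators of mitotic entry the kinase PLK1 led at 98.3 FPKM. The checkpoint protein MAD2L1 led its group at 73.4 FPKM, and the survivin gene BIRC5 the chromosomal passenger complex at 58.3 FPKM. NUF2 of the outer kinetochore averaged 35.7 FPKM, the most of the 6 centromere and kinetochore genes. PTTG1, the securin that restrains separase, led the anaphase and cytokinesis genes at 80.7 FPKM, and TOP2A, the topoisomerase that untangles chromosomes, averaged 77.4 FPKM.

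**Figure D1:**
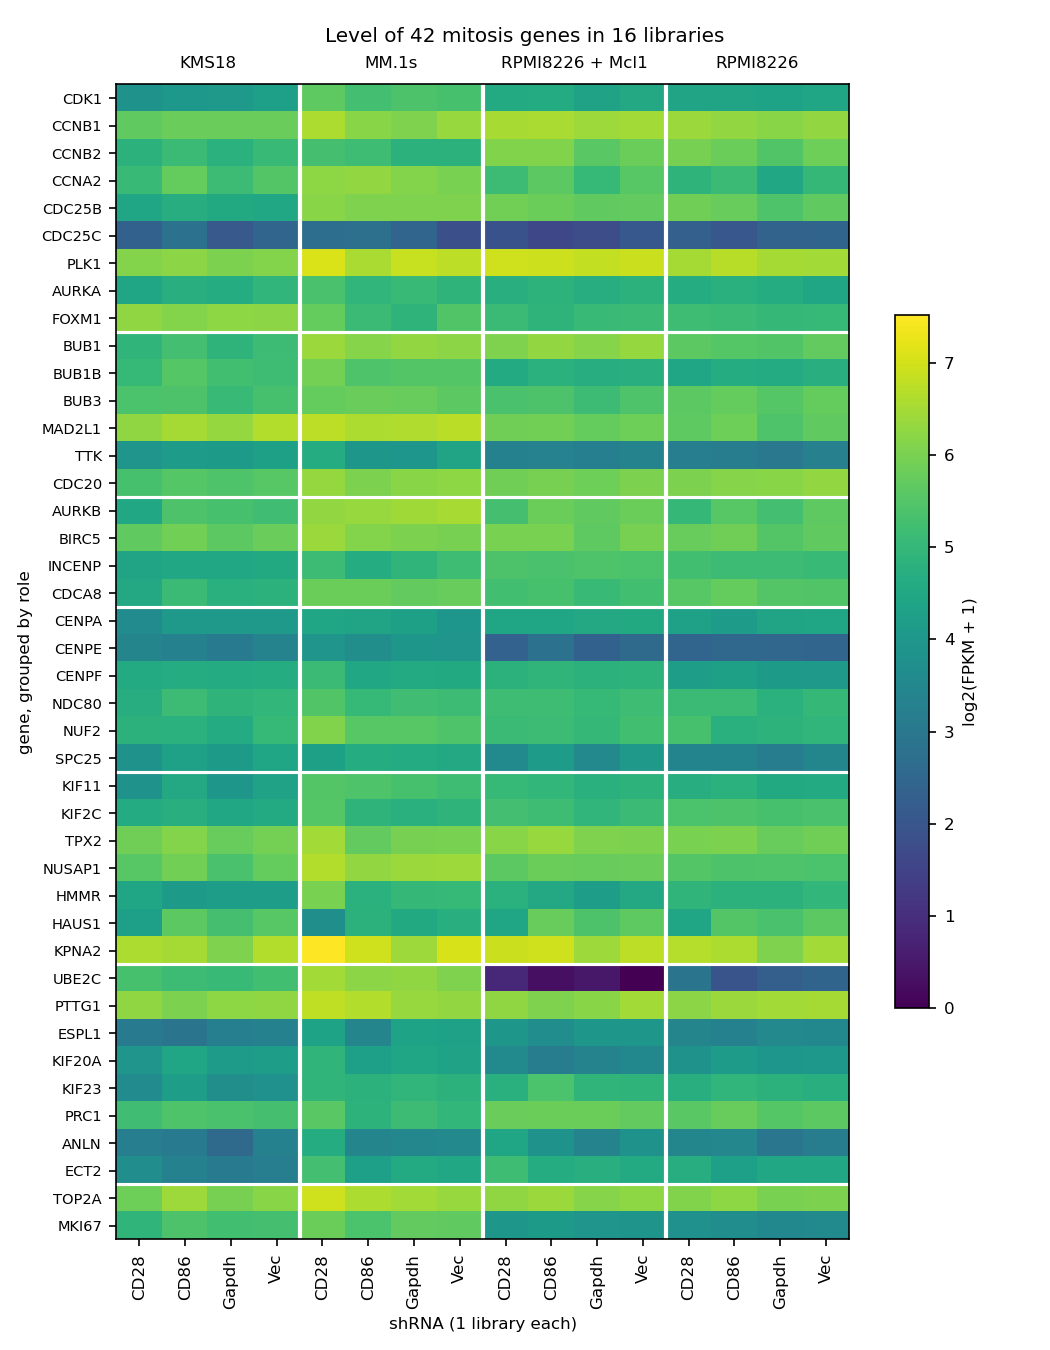
Level of each of the 42 genes (rows, grouped by role) in each of the 16 libraries (columns, grouped by background), as log2(FPKM + 1) by colour. The MM.1s library with CD28 shRNA is the brightest column for most genes, HAUS1 is darkest with CD28 shRNA in every background, and UBE2C is near 0 in the Mcl1 line.

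Within backgrounds, the members moved together from library to library. After the mean of each background was taken off, the median Pearson r over the 861 pairs of members was 0.39 across the 16 libraries, and 85.4% of pairs lay above 0, against a median of 0.0049 over all pairs of the genes tested. The libraries of a pair of genes are the same ones, with the same depth and scaling, so r is given as a description only. No r was computed within a single background. The MM.1s library with CD28 shRNA had a member mean of 5.64 in log2(FPKM + 1), against 5.29 to 5.32 in the other MM.1s libraries. Its part in r was not tested. NDC80, a kinetochore subunit, and TOP2A followed the rest most closely, with a median r to the other members of 0.64 and 0.59. HAUS1 (-0.06), AURKB (0.05), ESPL1 (0.10) and UBE2C (0.10) followed it least.

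Promoters are shown because genes of this kind often carry the letters TTTGAA, the core of the cell cycle genes homology region bound by MuvB complexes, next to CCAAT boxes, which bind NF-Y. RefSeq promoters (GRCh38.p14, 250 bases before to 50 after the start) were matched for 35 of the 42 members. For each gene only the promoter listed first was used, so matches at other starts of a gene would be missed. Both strands were searched, and overlapping matches were each counted. TTTGAA was in 24 of the 35 (68.6%), against 9.47% of the 8466 promoters of genes tested, and CCAAT in 26 (74.3%), against 37.4%. Both occurred in 20 (57.1%), against 4.1%. By role, both occurred in 4 of 7 anaphase and cytokinesis genes, 3 of 6 centromere and kinetochore genes, 2 of 3 passenger complex genes, 3 of 7 mitotic entry genes, 2 of 4 checkpoint genes, 4 of 6 spindle genes and in TOP2A and MKI67. The 4 genes below were picked after their values were seen, for high or low values with CD28 shRNA. HMMR was not called in any main comparison of shRNAs. HMMR (chr5:163460382-163460681, plus strand) held 2 TTTGAA and 5 CCAAT matches and ECT2 (chr3:172750476-172750775, plus strand) held 2 and 3. AURKB (chr17:8210176-8210475, minus strand) held 1 CCAAT and no TTTGAA, and HAUS1 (chr18:46104135-46104434, plus strand) held neither. Other members did not follow this split. SPC25, also lower with CD28 shRNA (log2 -0.30), held 2 TTTGAA and 2 CCAAT matches. ANLN, with a higher value (0.42) than HMMR (0.38), held 2 TTTGAA and 0 CCAAT. Whether the matches go with the changes was not tested. Each of the 4 picked promoters is written from upstream to downstream, with the matches in capitals.
HMMR: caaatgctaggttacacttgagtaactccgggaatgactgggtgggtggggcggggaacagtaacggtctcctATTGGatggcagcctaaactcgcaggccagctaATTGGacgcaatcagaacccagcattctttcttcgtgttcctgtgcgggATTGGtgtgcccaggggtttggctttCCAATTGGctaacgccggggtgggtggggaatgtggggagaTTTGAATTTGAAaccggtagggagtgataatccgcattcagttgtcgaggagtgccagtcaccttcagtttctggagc
ECT2: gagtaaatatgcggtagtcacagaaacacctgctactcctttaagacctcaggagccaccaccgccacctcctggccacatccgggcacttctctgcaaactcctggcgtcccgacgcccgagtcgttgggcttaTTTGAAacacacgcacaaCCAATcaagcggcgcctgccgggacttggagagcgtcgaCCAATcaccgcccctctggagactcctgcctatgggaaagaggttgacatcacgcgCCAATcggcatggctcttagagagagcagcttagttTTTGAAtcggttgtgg
AURKB: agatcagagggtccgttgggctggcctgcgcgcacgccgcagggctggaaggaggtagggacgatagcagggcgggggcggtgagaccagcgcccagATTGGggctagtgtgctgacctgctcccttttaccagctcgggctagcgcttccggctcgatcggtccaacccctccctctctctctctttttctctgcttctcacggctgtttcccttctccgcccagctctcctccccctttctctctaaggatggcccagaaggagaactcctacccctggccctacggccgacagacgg
HAUS1: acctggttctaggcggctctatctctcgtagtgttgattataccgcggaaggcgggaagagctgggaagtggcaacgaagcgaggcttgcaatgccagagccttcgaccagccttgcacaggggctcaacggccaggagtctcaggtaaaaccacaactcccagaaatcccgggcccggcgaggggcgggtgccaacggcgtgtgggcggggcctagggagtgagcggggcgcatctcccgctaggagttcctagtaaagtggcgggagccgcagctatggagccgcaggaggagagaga

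CD28 shRNA was set against Vec to see which genes differ with this construct. The loss of CD28 and other effects of the construct cannot be told apart in this comparison. Of the mitosis genes HAUS1 alone passed the test, and it was lower. HAUS1 is a subunit of augmin, which seeds new microtubules on the sides of existing spindle microtubules. HAUS1 had 17.8, 12.3, 20.2 and 20.9 FPKM with CD28 shRNA in KMS18, MM.1s, RPMI8226 and the Mcl1 line, against 46.5, 25.3, 48.1 and 49.5 FPKM with Vec in the same order. Every library with CD28 shRNA lay below every library with Vec, including the library of the Mcl1 line, which was not in the test. HAUS1 stood at 43.0% ± 5.21 of its Vec level (SD, n = 3 lines) and at 42.2% in the Mcl1 line, and the log2 change in the parental lines was -1.18 (SE 0.09, adjusted p = 0.000291, limma with Benjamini-Hochberg adjustment over 11316 genes). Among all genes tested 0.716% were called higher and 2.11% lower, so the 0 of 42 members called higher and 1 of 42 called lower are near that background. At an unadjusted p under 0.05, limma gave 2 members higher and 3 lower, a smaller share than the 19.8% of all genes. HAUS1 ranked the 2nd smallest p of all genes.

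Of the other 7 augmin subunits (HAUS2 to HAUS8), 0 passed in either direction with limma, and their log2 values ran from -0.32 to 0.07. The summed T cell markers were higher in the same libraries, with CD3D at 0 in all of them, and the part of these markers in the HAUS1 value was not tested, nor was that of the lower depth.

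AURKB, the kinase of the chromosomal passenger complex that corrects wrong attachments, had 21.1, 77.3, 31.0 and 38.7 FPKM with CD28 shRNA in KMS18, MM.1s, RPMI8226 and the Mcl1 line, against 36.1, 92.3, 48.7 and 56.1 FPKM with Vec. The CD28 library was below the Vec library in all 4 backgrounds, while the groups overlapped because MM.1s had more AURKB than the other lines. Its log2 value was -0.55 (SE 0.15) and the adjusted p of 0.0729 from limma missed the threshold of 0.05. INCENP, BIRC5 and CDCA8, the partners of AURKB in the complex, were not called either.

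ECT2, which activates the small GTPase RhoA at the division site, had 11.7, 37.6, 24.9 and 35.1 FPKM with CD28 shRNA, against 8.29, 21.2, 21.2 and 23.1 FPKM with Vec, in the same order of backgrounds. It was higher with CD28 shRNA in each background, but its log2 value of 0.49 (SE 0.14) did not pass in limma (adjusted p = 0.0823). ANLN, the scaffold anillin of the contractile ring, had 8.22, 24.2, 9.87 and 20.2 FPKM with CD28 shRNA, against 8.88, 10.7, 8.07 and 13.1 FPKM with Vec. The MM.1s library and that of the Mcl1 line stood out, KMS18 was not higher, and ANLN was at 0.42 (SE 0.22, limma adjusted p = 0.32).

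HMMR, a microtubule-binding spindle protein, had 20.5, 63.2, 29.4 and 26.9 FPKM with CD28 shRNA, against 17.5, 32.1, 30.3 and 22.0 FPKM with Vec. The difference lay mainly in MM.1s, and the value of 0.38 (SE 0.18) did not pass in limma (adjusted p = 0.27). SPC25, of the NDC80 complex that grips microtubules, had 13.2, 18.2, 9.54 and 11.1 FPKM with CD28 shRNA, against 20.5, 22.0, 9.94 and 15.8 FPKM with Vec. Its value was -0.30 (SE 0.13, limma adjusted p = 0.22), with little difference in RPMI8226. In the authors' deposited table ECT2 (log2 0.54, false discovery rate 0.009), AURKB (-0.52, 0.0231) and HAUS1 (-1.23, 1.63e-10) were under 0.05 for CD28 shRNA over Vec, and no other member was.

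**Figure D2:**
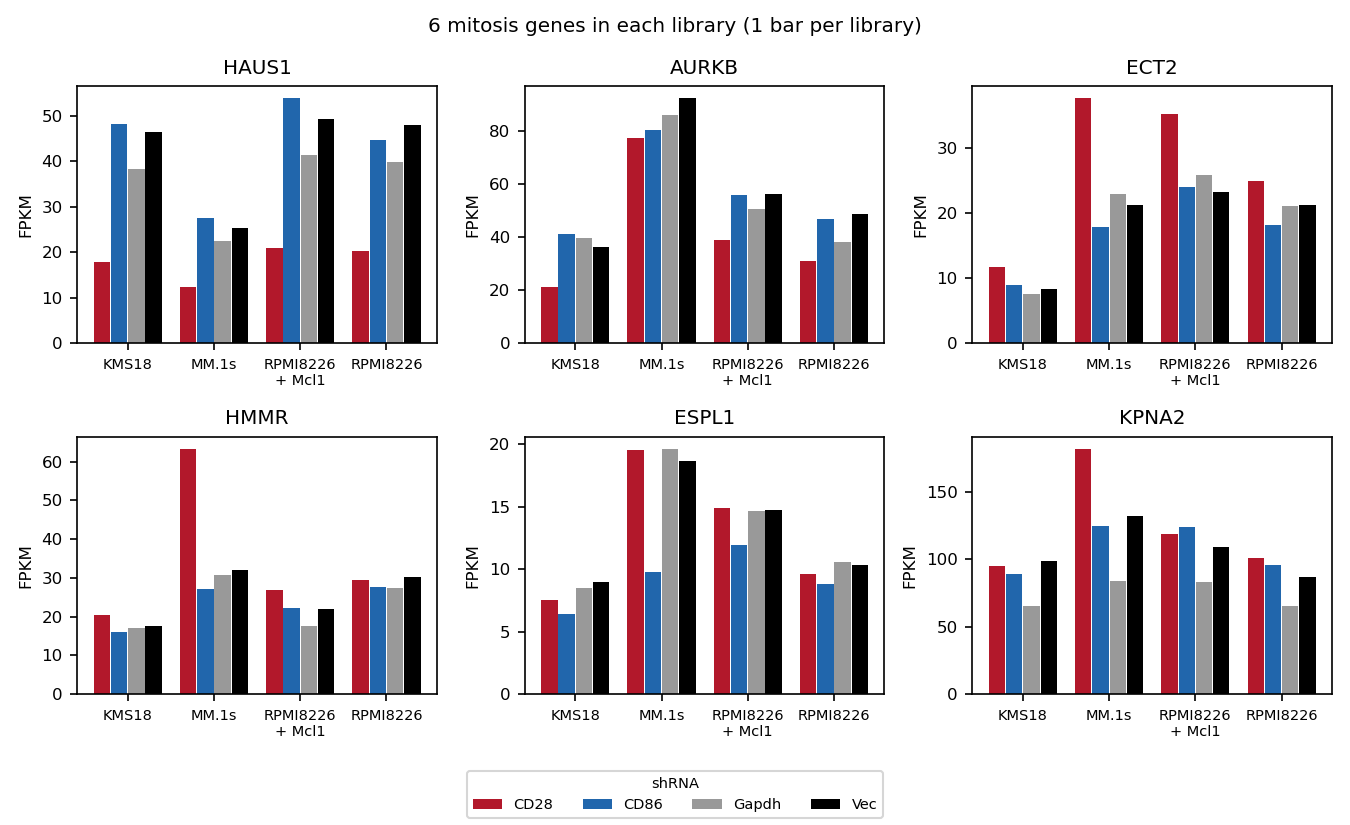
FPKM of 6 mitosis genes in each library (1 bar per library, coloured by shRNA, grouped by background). HAUS1 with CD28 shRNA is 12.3 to 20.9 FPKM in the 4 backgrounds against 25.3 to 49.5 FPKM with Vec, and HMMR with CD28 shRNA stands out in MM.1s at 63.2 FPKM.

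As a group the members were mostly higher in MM.1s and mostly lower in KMS18, and near an even split in the other backgrounds. With CD28 shRNA, 38 of the 42 genes had a higher value than with Vec in MM.1s (median log2 difference 0.32) and 8 of 42 in KMS18 (median -0.19). In RPMI8226 22 of 42 (median 0.03) and in the Mcl1 line 23 of 42 (median 0.01) were higher. Of all genes tested, 46.7% to 49.5% were higher in the 4 backgrounds, with medians of -0.01 to 0. The mean over the members in MM.1s was 5.64 on the log2(FPKM + 1) scale with CD28 shRNA, and 5.29, 5.32 and 5.32 with CD86 shRNA, Gapdh shRNA and Vec. In KMS18 it was 4.72, 4.97, 4.76 and 4.93 in that order of constructs. The control hairpin against Gapdh was low in KMS18 too, with 37 of the 42 genes below Vec (median -0.14), against 17 of 42 in MM.1s (median 0.05). With 1 library of each construct in a line these are differences between single libraries, and the difference between MM.1s and KMS18 was not tested.

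Among role groups, all 9 mitotic entry genes, all 6 checkpoint genes and all 8 anaphase and cytokinesis genes had a higher value with CD28 shRNA in MM.1s, against 1, 1 and 3 of them in KMS18. Of the spindle genes 6 of 7, of the kinetochore genes 5 of 6 and of the chromosome structure genes 2 of 2 were higher in MM.1s, against 2, 1 and 0 in KMS18. The 4 passenger complex genes were evenly split in MM.1s, with 2 higher (median 0.02), and 0 of 4 were higher in KMS18. Of the mitosis genes outside the list, 33 of 50 were higher in MM.1s (median 0.17) and 13 of 50 in KMS18 (median -0.21), and 0 of the 50 passed in limma over the 3 lines. The other lists were not mostly higher in MM.1s: 5 of 13 condensin and cohesin genes (median -0.01), 7 of 15 genes of the anaphase-promoting complex (-0.02) and 9 of 18 genes that control the cycle (0.01) were higher there, against 2, 5 and 6 in KMS18. Of the condensin and cohesin genes, SMC2, a condensin subunit, was lower (-0.47, limma adjusted p = 0.0315). Of those that control the cycle through E2F and MuvB factors, E2F4 (-0.42, limma adjusted p = 0.0143) and its partner TFDP1 (-0.52, adjusted p = 0.0458) were lower, and 0 of 15 genes of the anaphase-promoting complex were called.

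**Figure D3:**
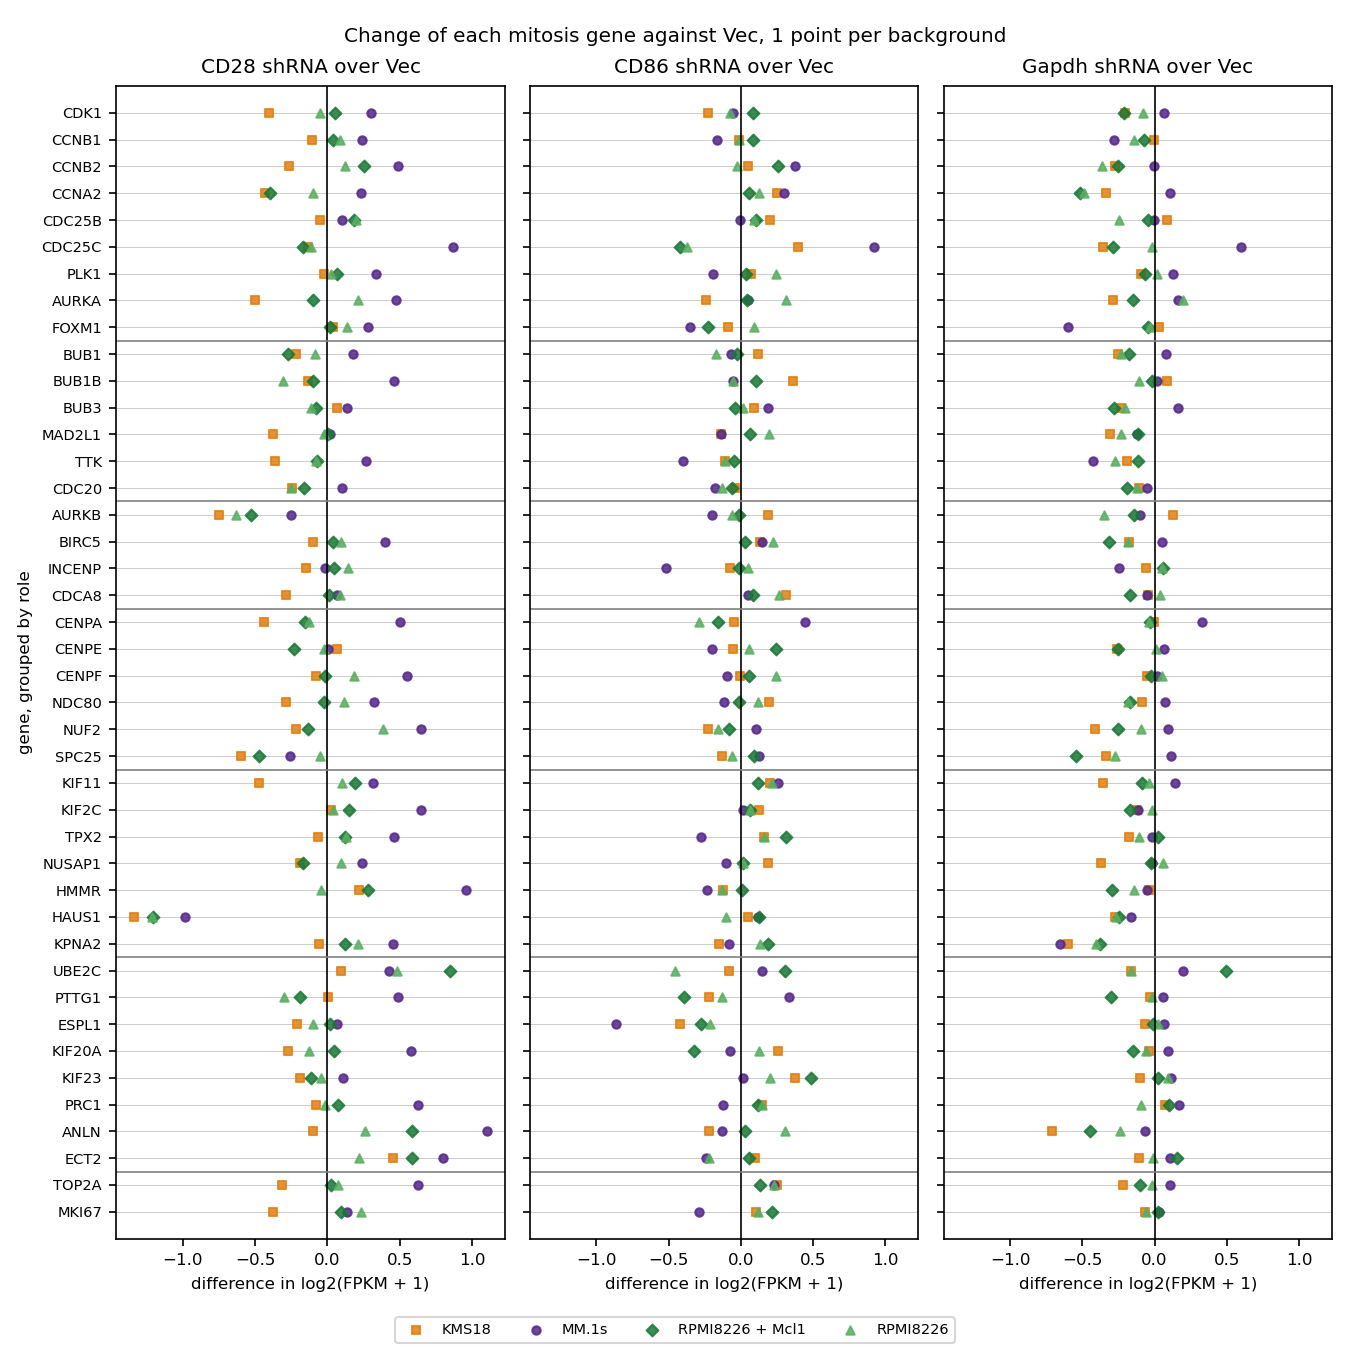
Difference in log2(FPKM + 1) from Vec for each of the 42 genes (rows, grouped by role) with CD28, CD86 and Gapdh shRNA (panels), 1 point per background. With CD28 shRNA the MM.1s points lie to the right of 0 for 38 genes and the KMS18 points to the left for 34, and HAUS1 is the outermost gene on the left in all 4 backgrounds.

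The 3′ UTR was searched for letters that went with lower values of other genes. This search was not part of the planned tests and was set up with an earlier word search of these data known. The 16068 words of 7 letters held by at least 50 genes were ranked by how far the genes with the word lay below those without it, over genes that are not members and with UTR length taken into account (GENCODE v29 transcripts, GRCh38; 10069 genes with a UTR of at least 7 bases). The top of so many words differs most by selection, so no test is given. UTR length was taken into account in the ranking only, and the medians below are of changes not adjusted for it. The top word for CD28 shRNA was CTGTGTT: the 2128 genes with it had a median log2 change of -0.06 and the 7899 without it 0.01. It was in the UTRs of 5 members, HAUS1, CCNA2, CDCA8, MKI67 and TOP2A, and HAUS1 alone of these was called. The 37 members without it had a median of 0.06 and ran from -0.55 to 0.49. The word that ranked 2, TGTGTTA, overlaps the top one and parted the other genes about as far (median -0.07 with it and 0.0027 without it). The 1 member with it, BUB3, was at 0.03 (limma adjusted p = 0.89). The word that ranked 3, TCTGTGT, also overlaps the top one (median -0.03 with it and 0.00058 without it) and was in 8 members. Of these HAUS1 averaged 43.0% and AURKB 68.6% of Vec with CD28 shRNA over the 3 parental lines. The others, BUB3, CCNA2, MKI67, NUSAP1, TOP2A and TPX2, averaged 102%, 94.8%, 102%, 104%, 114% and 114%. The sites of HAUS1 (chromosome 18, bases 98 to 104 of a UTR of 208) and AURKB (chromosome 17, bases 39 to 45 of 138) are shown because these had the lowest values for CD28 shRNA over Vec, with the word in capitals.
HAUS1: acaaaactttCTGTGTTcttagattac
AURKB: tgtttgtatgTCTGTGTatgtataggg
For CD86 shRNA the top word was TCAAGCA (median -0.05 with it and 0.03 without it), which 1 member held, the checkpoint gene BUB3. The top word for Gapdh shRNA, ATGGTTT, barely parted the other genes (median -0.01 with and -0.01 without). These words are descriptions of UTR letters: with no hairpin sequence at hand, whether a hairpin pairs with them was not tested.

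With CD86 shRNA no mitosis gene passed against Vec. Limma called 0 of 42 members higher and 0 lower, beside 0.0619% higher and 0.566% lower among all genes tested. At an unadjusted p under 0.05, limma gave 0 members higher and 1 lower, beside 12.8% of all genes. CD86 itself was not called in this comparison (log2 -0.62, limma adjusted p = 0.315). All 7 plasma cell markers had values below 0 with CD86 shRNA over Vec (median -0.44), and limma called SDC1 and MZB1 of them lower. The part of this in the values of the members was not tested. Limma's voom on reads called 1 lower, ESPL1. ESPL1 encodes separase, the protease that cuts cohesin at anaphase. ESPL1 had 6.41, 9.77, 8.77 and 11.96 FPKM with CD86 shRNA in KMS18, MM.1s, RPMI8226 and the Mcl1 line, against 8.92, 18.7, 10.4 and 14.7 FPKM with Vec. It was lower with CD86 shRNA in every background, and farthest in MM.1s, while the groups overlapped. It stood at 69.6% ± 16.3 of Vec (SD, n = 3 lines), with a log2 value of -0.50 (SE 0.15, limma adjusted p = 0.19), and the authors' deposited table gives -0.56 with a false discovery rate of 0.0237 for CD86 shRNA over Vec.

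The checkpoint kinase TTK had 16.9, 14.8, 7.99 and 8.98 FPKM with CD86 shRNA, against 18.3, 19.9, 8.72 and 9.32 FPKM with Vec. INCENP, the scaffold of the passenger complex, had 21.3, 24.2, 34.6 and 40.0 FPKM with CD86 shRNA, against 22.5, 35.1, 33.4 and 40.4 FPKM with Vec. For both the gap lay mainly in MM.1s, and the log2 values of -0.21 and -0.18 had limma adjusted p-values of 0.61 and 0.56. Cyclin A (CCNA2) had 52.8, 77.9, 33.7 and 48.0 FPKM with CD86 shRNA, against 44.2, 63.0, 30.8 and 46.1 FPKM with Vec, and TOP2A had 85.03, 95.0, 75.2 and 82.6 against 71.4, 80.7, 64.2 and 75.2 FPKM. Both were a little higher with CD86 shRNA in each background, at 0.23 and 0.24 on the log2 scale (limma adjusted p = 0.51 and 0.55). CDC25C had 6.19, 5.81, 3.13 and 2.12 FPKM with CD86 shRNA, against 4.48, 2.60, 4.36 and 3.19 FPKM with Vec, so its value of 0.31 (limma adjusted p = 0.62) came from KMS18 and MM.1s and the other backgrounds went the other way. By background, 23, 17, 24 and 28 of the 42 genes were higher with CD86 shRNA in KMS18, MM.1s, RPMI8226 and the Mcl1 line, where 47.5%, 54.6%, 52.0% and 51.0% of all genes were. Outside the members, NCAPD3 of condensin was lower (-0.73, limma adjusted p = 0.0324), and 0 of 50 other mitosis genes were called.

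Gapdh shRNA served as a hairpin control. Limma called 0 members higher and 0 lower against Vec, as among all genes tested (0% higher and 0% lower), and voom on reads also gave 0. GAPDH, the silenced gene, was not called either (log2 -1.89, limma adjusted p = 1.00), so the counts of 0 do not show that members were unaffected. At an unadjusted p under 0.05, 0 members were higher and 2 lower, KPNA2 and HAUS1, beside 3.55% of all genes. HAUS1 had 38.3, 22.5, 39.9 and 41.5 FPKM with Gapdh shRNA in KMS18, MM.1s, RPMI8226 and the Mcl1 line, against 46.5, 25.3, 48.1 and 49.5 FPKM with Vec, at -0.23 on the log2 scale (SE 0.09, limma adjusted p = 1.00). It was lower with Gapdh shRNA in each background, while the groups overlapped. KPNA2 had 65.2, 83.8, 65.6 and 83.5 FPKM with Gapdh shRNA in KMS18, MM.1s, RPMI8226 and the Mcl1 line, against 99.1, 132, 87.3 and 109 FPKM with Vec. All 4 libraries with Gapdh shRNA lay below all 4 with Vec. KPNA2 stood at 68.1% ± 6.22 of Vec (SD, n = 3 lines; 76.6% in the Mcl1 line) with a log2 value of -0.55 (SE 0.11), an unadjusted p of 0.000392 and an adjusted p of 1.00 in limma. Of the 6 other importins tested 0 were called, with values of -0.23 to 0.18.

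ANLN had 5.04, 10.2, 6.67 and 9.37 FPKM with Gapdh shRNA, against 8.88, 10.7, 8.07 and 13.1 FPKM with Vec, and TTK had 15.9, 14.5, 7.03 and 8.54 against 18.3, 19.9, 8.72 and 9.32 FPKM. Both were lower with Gapdh shRNA in each background, at -0.34 and -0.30 (limma adjusted p = 1.00 for both). The members with the highest estimates were near 0: CENPA, the histone H3 variant of centromeres, at 0.10, CDC25C at 0.08 and the spindle midzone protein PRC1 at 0.05, again with adjusted p-values of 1.00 in limma. CENPA had 15.8, 18.4, 19.99 and 22.2 FPKM with Gapdh shRNA, against 15.8, 14.5, 20.6 and 22.7 FPKM with Vec. CDC25C had 3.27, 4.46, 4.30 and 2.43 against 4.48, 2.60, 4.36 and 3.19 FPKM, and PRC1 had 40.0, 34.2, 44.9 and 55.4 against 38.0, 30.4, 48.1 and 51.6 FPKM. For CENPA and CDC25C MM.1s alone was higher with Gapdh shRNA. As a group 5, 25, 9 and 7 of the 42 genes had a higher value with Gapdh shRNA in KMS18, MM.1s, RPMI8226 and the Mcl1 line, with medians of -0.14, 0.05, -0.09 and -0.15. Of all genes tested 45.6%, 46.4%, 49.0% and 50.3% were higher, with medians of -0.01 to 0.0013.

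CD86 shRNA was also set against CD28 shRNA, to see where hairpins against the ligand and the receptor differed. CD86 itself was higher with CD28 shRNA than with Vec in each background, and its part in the values of the members was not tested. Here 2 members were higher and 1 was lower in limma, beside 5.41% higher and 4.1% lower among all genes tested. HAUS1 was higher (log2 1.20, SE 0.09, limma adjusted p = 0.000254), with 48.2, 27.5, 44.7 and 53.9 FPKM with CD86 shRNA against the 17.8, 12.3, 20.2 and 20.9 FPKM with CD28 shRNA given above, and no overlap. AURKB was higher (0.52, SE 0.15, limma adjusted p = 0.0482), with 41.3, 80.2, 46.7 and 55.7 FPKM with CD86 shRNA in KMS18, MM.1s, RPMI8226 and the Mcl1 line, against 21.1, 77.3, 31.0 and 38.7 FPKM with CD28 shRNA. It was higher in all 4 backgrounds, and least so in MM.1s. ECT2 was lower (-0.61, SE 0.14, limma adjusted p = 0.0226), with 8.91, 17.8, 18.0 and 24.0 FPKM with CD86 shRNA against 11.7, 37.6, 24.9 and 35.1 FPKM with CD28 shRNA, again in all 4. The calls of AURKB and ECT2 were lost when any 1 of the 3 lines was left out: without KMS18, MM.1s or RPMI8226 the limma adjusted p of AURKB was 0.268, 0.0529 and 0.176, and that of ECT2 0.0713, 0.175 and 0.0625.

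HMMR (-0.54, limma adjusted p = 0.0803) and UBE2C (-0.46, adjusted p = 0.0591) had the next lowest values. HMMR had 15.9, 27.04, 27.6 and 22.1 FPKM with CD86 shRNA against 20.5, 63.2, 29.4 and 26.9 FPKM with CD28 shRNA. UBE2C, the ubiquitin-conjugating enzyme of the anaphase-promoting complex, had 34.4, 72.7, 2.91 and 0.232 against 39.1, 88.5, 6.46 and 0.799 FPKM. Both were lower with CD86 shRNA in each background. CCNA2, at 0.33 (limma adjusted p = 0.148), had 52.8, 77.9, 33.7 and 48.0 FPKM with CD86 shRNA against 32.5, 74.2, 28.7 and 34.7 FPKM with CD28 shRNA. The authors' deposited table holds 2 members higher (HAUS1 and AURKB) and 4 lower (ECT2, HMMR, ESPL1 and NUF2) at a false discovery rate under 0.05 for CD86 shRNA over CD28 shRNA. By background 32, 6, 23 and 27 of the 42 genes were higher with CD86 shRNA in KMS18, MM.1s, RPMI8226 and the Mcl1 line, where 49.9%, 55.3%, 51.1% and 51.2% of all genes were. Limma called the plasma cell markers SDC1 and MZB1 lower here too (median of the 7 markers -0.22), and CD3E, the T cell marker that was tested, lower (-1.24). Their part in the values of the members was not tested. The comparison shares its CD28 libraries with the one against Vec. Of the 50 other mitosis genes, 1 was higher, the kinesin KIF15 (0.51), and 3 were lower, the kinesin KIF14 (-0.73), CKS1B (-0.49), which binds CDK1, and SGOL1 (-0.55), the shugoshin that guards centromeric cohesin. Of the other lists, SMC2 (0.50), E2F4 (0.49), TFDP1 (0.63), RBBP4 (0.34), RBL1 (0.55) and ANAPC7 (0.49) were higher and NCAPD3 (-0.61) and SMC1A (-0.53) lower, all with limma adjusted p-values from 0.00438 to 0.047.

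More members passed between parental lines than between constructs, as was true of all genes. KMS18 had lower levels than MM.1s for most members: limma called 2 members higher and 31 lower, beside 30.8% of all genes higher and 34.5% lower, and the median log2 difference was -0.49 (all genes -0.02). The members higher in KMS18 were HAUS1 (0.72) and FOXM1 (0.91), the transcription factor that turns on many mitosis genes, which averaged 73.4 ± 2.995 FPKM in KMS18 and 39.6 ± 10.8 FPKM in MM.1s (SD, n = 4 libraries of the line). CDC25B, the phosphatase that activates CDK1, had 20.7, 24.9, 22.9 and 21.5 FPKM with CD28, CD86 and Gapdh shRNA and Vec in KMS18, against 71.3, 66.0, 66.1 and 66.2 FPKM in MM.1s. CDK1 had 13.3, 15.2, 15.5 and 17.9 FPKM in KMS18 against 48.9, 37.9, 41.3 and 39.5 FPKM in MM.1s. The lines did not overlap for either gene, and the log2 differences were -1.54 and -1.38 (limma adjusted p = 8.33e-08 and 5.1e-07). The checkpoint kinase BUB1 had 29.4, 37.4, 28.6 and 34.3 FPKM in KMS18, against 83.0, 69.8, 77.5 and 73.2 FPKM in MM.1s (-1.21, limma adjusted p = 9.31e-07). ECT2 was lower too (-1.31, limma adjusted p = 2.56e-06), at 9.13 ± 1.82 FPKM in KMS18 and 24.9 ± 8.75 FPKM in MM.1s (SD, n = 4). All 4 passenger complex genes, 6 of 9 mitotic entry genes, 5 of 6 checkpoint genes, 5 of 7 spindle genes, 6 of 8 anaphase and cytokinesis genes and 3 of 6 kinetochore genes were called lower.

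Against RPMI8226, KMS18 had 10 members higher and 16 lower in limma, beside 35.2% of all genes higher and 35.1% lower. CDC25B (-1.14) and KIF23 (-0.98), the kinesin of the central spindle, were lower and UBE2C (2.80) and MKI67 (1.59), which coats mitotic chromosomes and marks proliferating cells, were higher, with limma adjusted p-values of 6.16e-07, 5.48e-06, 3.17e-09 and 7.17e-07. KIF23 had 11.3, 17.1, 11.98 and 12.9 FPKM with CD28, CD86 and Gapdh shRNA and Vec in KMS18, against 25.0, 29.8, 27.6 and 25.8 FPKM in RPMI8226. MKI67 averaged 36.5 ± 5.09 FPKM in KMS18, 49.5 ± 6.16 FPKM in MM.1s and 11.4 ± 1.12 FPKM in RPMI8226 (SD, n = 4). No library of RPMI8226 reached the lowest of KMS18 or MM.1s for MKI67. MM.1s against RPMI8226 had 24 members higher and 4 lower in limma, beside 35.9% of all genes higher and 33.2% lower, with a median of 0.43 (all genes 0.03). The 4 lower were HAUS1 (-0.76), the cyclin CCNB2 (-0.74), PRC1 (-0.49) and the microtubule-depolymerising kinesin KIF2C (-0.36). The kinetochore motor CENPE had 14.3, 12.2, 14.9 and 14.2 FPKM in MM.1s against 4.43, 4.73, 4.56 and 4.52 FPKM in RPMI8226 (1.42, limma adjusted p = 3.06e-07). MAD2L1 had 107, 95.6, 96.8 and 106 FPKM in MM.1s against 49.2, 57.3, 42.5 and 50.002 FPKM in RPMI8226 (1.02, limma adjusted p = 1.53e-06). Neither gene overlapped between these lines.

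**Figure D4:**
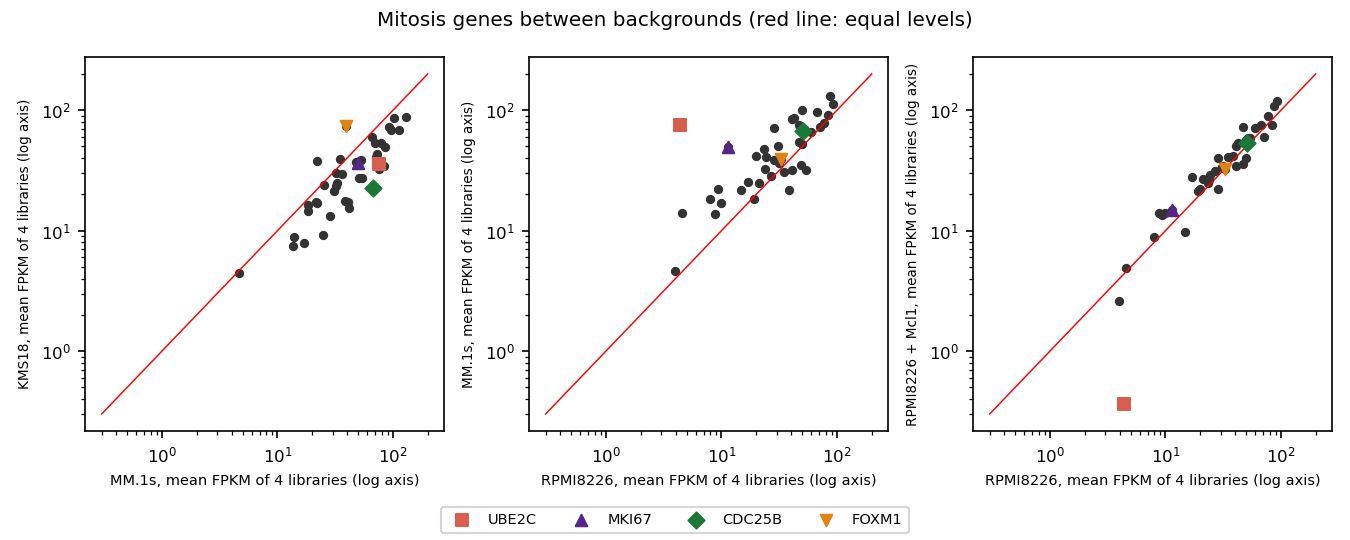
Mean FPKM over 4 libraries of each of the 42 genes in 1 background (vertical) against another (horizontal), log axes, with the red line at equal levels. Most genes lie below the line for KMS18 against MM.1s, above it for MM.1s against RPMI8226 and close to it for the Mcl1 line, and UBE2C lies far off in the right-hand panels.

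UBE2C had the largest difference of the members in each comparison with RPMI8226. It had 39.1, 34.4, 32.5 and 36.5 FPKM with CD28, CD86 and Gapdh shRNA and Vec in KMS18, and 88.5, 72.7, 75.4 and 65.6 FPKM in MM.1s. In the same order it had 0.799, 0.232, 0.411 and 0 FPKM in the Mcl1 line, from 6, 2, 4 and 0 reads, and 6.46, 2.91, 3.79 and 4.35 FPKM in RPMI8226, from 58, 32, 38 and 50 reads. All of these read counts were even, and the number of fragments may be smaller. No pair of backgrounds overlapped. The log2 difference was -1.98 for the Mcl1 line over RPMI8226 (limma adjusted p = 0.000138) and 3.86 for MM.1s over RPMI8226 (adjusted p = 3.41e-10), on the log2(FPKM + 1) scale, which understates changes at such low values. Its neighbours on chromosome 20 were looked at after these values were seen. DNTTIP1 next to it averaged 24.2 ± 2.60, 22.6 ± 2.10, 21.4 ± 2.96 and 19.3 ± 0.808 FPKM in KMS18, MM.1s, the Mcl1 line and RPMI8226 (SD, n = 4), and ACOT8 6.65 ± 1.51, 5.97 ± 0.867, 5.33 ± 0.827 and 6.21 ± 1.09 FPKM. TNNC2, next to UBE2C on the other side, averaged 0 FPKM in KMS18 and MM.1s. It averaged 0.875 ± 0.328 FPKM in the Mcl1 line and 0.355 ± 0.24 FPKM in RPMI8226, values near the floor.

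**Figure D5:**
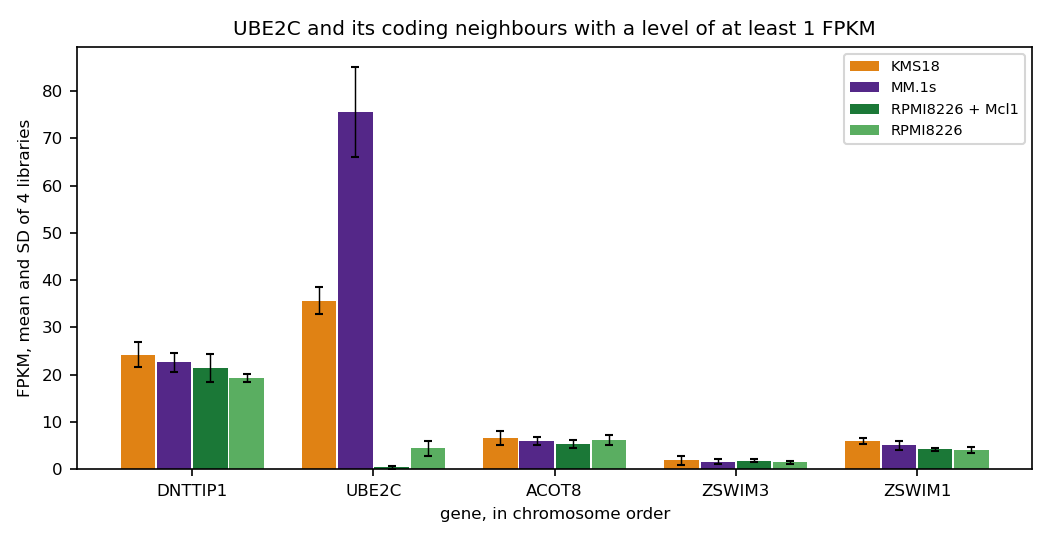
Mean FPKM of UBE2C and of the coding genes around it that reach 1 FPKM, in the order of their chromosome, for 4 backgrounds (bars; error bars are the SD of 4 libraries). UBE2C spans 0.36 FPKM in the Mcl1 line to 75.5 FPKM in MM.1s, while DNTTIP1 stays between 19.3 and 24.2 FPKM.

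The Mcl1 line was compared with RPMI8226 with libraries of the same construct paired. Limma called 20 members higher and 8 lower, beside 19.5% higher and 14.9% lower among the 11024 genes tested, and the median was 0.16 (all genes 0.03). CENPF, a large kinetochore protein, had 27.6, 29.2, 27.5 and 28.0 FPKM with CD28, CD86 and Gapdh shRNA and Vec in the Mcl1 line, against 17.6, 18.4, 15.97 and 15.4 FPKM in RPMI8226. BUB1 had 65.3, 77.4, 69.9 and 79.0 FPKM in the Mcl1 line against 47.9, 44.9, 43.1 and 50.8 FPKM in RPMI8226, and PLK1 124, 121, 113 and 118 against 89.1, 104, 88.8 and 87.6 FPKM. None of the 3 overlapped between the lines, and they were higher in the Mcl1 line by 0.71, 0.63 and 0.37 (limma adjusted p = 0.000182, 0.000302 and 0.00125). ESPL1 had 14.9, 11.96, 14.6 and 14.7 FPKM in the Mcl1 line against 9.62, 8.77, 10.6 and 10.4 FPKM in RPMI8226 (0.47, limma adjusted p = 0.00168). KPNA2 had 119, 124, 83.5 and 109 against 101, 95.7, 65.6 and 87.3 FPKM (0.31, limma adjusted p = 0.00107). CCNA2 had 34.7, 48.0, 31.9 and 46.1 against 28.7, 33.7, 21.6 and 30.8 FPKM (0.47, limma adjusted p = 0.00137). For KPNA2 and CCNA2 the lines overlapped but each pair with the same construct was higher in the Mcl1 line. The same held for ANLN, which had 20.2, 13.4, 9.37 and 13.1 FPKM in the Mcl1 line against 9.87, 10.2, 6.67 and 8.07 FPKM in RPMI8226 (0.60, limma adjusted p = 0.00494).

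Of the 8 lower in the Mcl1 line, UBE2C apart, BUB3, the partner of BUB1, had 40.3, 41.4, 34.8 and 42.5 FPKM in the Mcl1 line against 48.3, 52.8, 45.2 and 52.2 FPKM in RPMI8226 (-0.31, limma adjusted p = 0.00179). KIF20A, a kinesin needed for cytokinesis, had 10.8, 8.14, 9.33 and 10.4 against 13.6, 16.4, 14.4 and 15.0 FPKM (-0.57, limma adjusted p = 0.00525). Neither overlapped between the lines. CDC25C, at 2.72, 2.12, 2.43 and 3.19 against 3.96, 3.13, 4.30 and 4.36 FPKM (-0.45, limma adjusted p = 0.0124), overlapped by 1 library on each side. The other 4 were CDCA8 (-0.37), CDC20 (-0.22), HMMR (-0.37) and KIF2C (-0.23). With the Mcl1 line a single derivative, its construction cannot be told apart from other differences between the cultures. When the response of the Mcl1 line to a shRNA was set against the mean response of the parental lines, limma called 0 members for CD28 shRNA and 0 for CD86 shRNA, beside 0.00881% and 0% of 11349 genes. At an unadjusted p under 0.05 it gave 0 and 0 members, beside 3.27% and 2.58% of all genes. HAUS1 differed by -0.03 (SE 0.18) in its response to CD28 shRNA.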

How the data were processed

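The authors deposited FPKM values per gene and library with exon lengths, and, for their own comparisons, log2 fold changes, a likelihood ratio score, p-values and false discovery rates. Their fold changes, named by pairs, were taken as the second name over the first, since the sign then matched the FPKM values for 99.9% to 100% of genes under 0.05. Per the submitters' processing notes, the tools were edgeR 3.12.1, R 3.2.2, Picard and TopHat2 2.0.13 with hg19, GRCh37 and mm9 as builds, without steps. Whether reads were counted by strand is not stated, so reads of overlapping genes may be mixed, and those of near-identical copies (as for PTTG1) may be split. The members and gene lists were chosen with earlier results of these data known.

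Tests used limma 3.58.1 (R 4.3.3; eBayes with trend) on log2(FPKM + 1) for genes averaging 1 FPKM or more, two-sided, with Benjamini-Hochberg adjustment over all genes tested and a threshold of 0.05. The 12 parental libraries were fitted with terms for shRNA and line (6 residual degrees of freedom), and the 8 of the Mcl1 line and RPMI8226 with line and shRNA (3). The Mcl1 line's response was an interaction over all 16. Lines pair the libraries by design: in all 18 pairs of the same line, deviations from shRNA means had r of 0.87 to 0.95 across genes. FPKM times exon length gave whole reads for 100% of values, within 0.02 of a read, which gave depth and the input of limma's voom, an alternative. Among low counts 72.2% to 74.7% per library were even, so fragments may be fewer than the reads given, which was not tested. Alternatives also changed the pseudocount (0.1), the filter (none, or a mean of 5 FPKM), the scaling, the libraries and the blocks, and left out each line or shRNA. The fit was tested on simulated data. The ranking of 3′ UTR words was added after the data were seen. Named are the members past the threshold (up to the 8 smallest p), the 3 with the largest and the 3 with the smallest estimate per shRNA or Mcl1 comparison, the 4 with the smallest p between lines, the most abundant of each role, and up to 4 genes past the threshold of each other list. Other members are named where a count or a description singles them out, after their values were seen.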

Additional observations from a re-analysis of the deposited data

Results flagged for a closer look

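For each member and background, the highest and lowest of the 4 libraries were compared with the rest by Dixon's ratio (gap to the nearest library over the whole range, against its critical value for 4 samples). Of 168 groups 13 stood out, where 1 in 20 would be 8.4.

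In MM.1s the CD28 library was the highest of 4 and past the critical value for 5 genes. It was the highest for more genes, such as TOP2A and HMMR, without passing it. ANLN had 24.2 FPKM there against 9.68 to 10.7 FPKM in the other MM.1s libraries, and the spindle motor KIF2C had 45.1 against 26.2 to 28.8 FPKM. The kinetochore gene NUF2 had 67.7 FPKM against 42.9 to 46.2, and the checkpoint gene BUB1B 61.1 against 42.4 to 44.6 FPKM. CDC25B had 71.3 FPKM against 66.0 to 66.2. In KMS18 the CD28 library was the lowest of 4 and past the critical value for the cyclin CCNB1 and for CENPA. CCNB1 had 50.7 FPKM there against 54.3 to 54.7, and CENPA 11.4 against 15.3 to 15.8 FPKM. It was the lowest for more genes, such as AURKB and SPC25, without passing it. The difference between MM.1s and KMS18 was not tested.

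With CD86 shRNA ESPL1 was the lowest of 4 in MM.1s, at 9.77 FPKM against 18.7 to 19.6, and in the Mcl1 line, at 11.96 against 14.6 to 14.9 FPKM. PTTG1 was lowest in KMS18, at 64.4 FPKM with CD86 shRNA against 73.8 to 75.5, and PLK1 highest in RPMI8226, at 104 against 87.6 to 89.1 FPKM. With Gapdh shRNA, BIRC5 was lowest in the Mcl1 line, at 49.3 FPKM against 61.4 to 63.1, and so was NDC80, at 31.5 against 34.9 to 35.5 FPKM.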

How the results depend on the processing

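Against a main count of 1 member for CD28 shRNA over Vec, a filter at a mean of 5 FPKM gave 2 (HAUS1 and AURKB), voom on reads 2 (HAUS1 and ECT2), all 16 libraries 4 and the mean of Vec and Gapdh shRNA as reference 4. Without any 1 line it was 1 to 1. For CD86 shRNA over Vec voom gave 1 (main 0). For CD86 over CD28 shRNA (main 3) voom gave 6, all 16 libraries 9, only the compared libraries 1, and leaving out any 1 line 1 to 1, which was HAUS1. Without the line term (no replicate block) the counts for CD28 shRNA over Vec and CD86 over CD28 shRNA were 0, and without the shRNA pairing the Mcl1 line had 15 members past the threshold against 28. HAUS1 kept its calls in every alternative but that without the block (adjusted p = 1.00 and 0.927 in limma). AURKB lost its call over CD28 shRNA also with a pseudocount of 0.1 (limma adjusted p = 0.0577), with no filter (0.105) and with rescaled FPKM (0.0746). With a pseudocount of 0.1 the response to CD28 shRNA differed in the Mcl1 line for 1 member (main 0), UBE2C, at 0 to 6 reads per library there. For Gapdh shRNA over Vec, uncalled values near 0 changed sign: CDC25C was -0.016 over all 16 libraries, and without MM.1s CDC25C was -0.19, CENPA -0.020 and PRC1 -0.012. The cause was not tested in any of these. The counts between lines stayed within 1.5 times the main ones. Depth limits UBE2C in the Mcl1 line, and CDC25C, with 34 to 118 reads per library.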

Other observations

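By role, the median log2 differences from Vec with CD28 shRNA are given for MM.1s, KMS18, RPMI8226 and the Mcl1 line in that order. The spindle motors and assembly factors had 0.46, -0.07, 0.10 and 0.13, and the anaphase and cytokinesis genes 0.53, -0.09, -0.03 and 0.06. The centromere and kinetochore genes had 0.41, -0.25, 0.05 and -0.15, and the mitotic entry genes 0.30, -0.13, 0.09 and 0.04. The checkpoint genes had 0.16, -0.23, -0.10 and -0.09, the passenger complex genes 0.02, -0.22, 0.09 and 0.02, and the genes of chromosome structure and surface 0.38, -0.34, 0.15 and 0.06. All genes tested had medians of -0.01 to 0. Each is a difference between 2 libraries, and none was tested.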
